A study of Homo sapiens with 2 samples.

Results

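The microtubule motors examined here are the kinesins, the subunits of cytoplasmic dynein and the subunits of dynactin. They were taken as the genes whose symbols in the array's annotation start with KIF or KIFC and a digit, DYNC1, DYNC2, DYNL or DCTN1 to DCTN6. Of 67 such genes, 46 gave a signal above background, the limit being a detection p-value below 0.01 on either of the 2 arrays. In all, 10189 of 20046 named genes were detected by the same rule. The 46 genes were 11 kinesins of mitosis and cytokinesis, 10 kinesins of cargo transport, 4 kinesins of other or several roles, 15 dynein subunits and 6 dynactin subunits.

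Total RNA came from SK-ES1, a human line of Ewing sarcoma, a tumour of bone and soft tissue driven by a fusion of EWSR1 with FLI1, and was hybridised to Illumina expression BeadChips, on which beads carry gene-specific probes. One group was wild type SK-ES1 cells and the other radiation-adapted SK-ES1 cells, whose label carries the value 4 Gy, and each had 1 array. How the radiation was given, and whether the adapted cells were a clone or a pool, is not given in the labels. With 1 array per group the differences have no replicate check and no test was made.

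Kinesins and dyneins are proteins that use ATP to walk along microtubules. Most kinesins walk towards the plus end, usually at the cell's edge, and dynein walks towards the minus end, usually near the nucleus, with dynactin joining it to its cargo. Some kinesins are made mainly in dividing cells, where they build the spindle, align the chromosomes and cut the daughter cells apart, while others carry vesicles, mitochondria and other cargo in cells of any state and above all along axons. The comparison of both arrays asks how these groups of motors differed between radiation-adapted and wild type cells.

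Mitotic kinesins had lower signals in the radiation-adapted cells in 10 of 11 genes, while transport kinesins had higher signals in 7 of 10, and dynein and dynactin subunits lay on both sides, with 11 of 21 higher. These counts take each gene's brightest probe. With the median of a gene's detected probes they were 9 of 11 (KIF23 turned), 6 of 10 (KIF1B turned) and 13 of 21 (DCTN1 and DYNLRB1 turned). The median log2 ratio, radiation-adapted minus wild type, was -0.34 for mitotic kinesins, 0.36 for transport kinesins, 0.03 for dynein subunits and -0.01 for dynactin subunits. Over all 10189 detected genes it was -0.04, with 46.6% of genes above 0 and 53.4% below. The median of mitotic kinesins lay 0.69 below that of transport kinesins on the log2 scale and 0.37 below that of dynein and dynactin subunits together.

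The differences were mostly under 2-fold. By measured ratio 3 of the 46 genes (6.52%) were at least 2-fold higher, beside 4.02% of all detected genes, and none was at least 2-fold lower, beside 2.07%. The 3 were KIF1A, KIF3C and DYNC1LI1, and with DYNC1LI1, detected on 1 array, at its lower bound there were 2. At 1.5-fold or more, 5 genes (10.9%) were higher, beside 12.5% of all detected genes, and 4 (8.70%) were lower, beside 9.59%. With DYNC1LI1 at its bound 4 were higher, beside 10.5% of all detected genes counted so. The number of motor genes with a sizeable difference was thus near that of all genes. The 4 lower genes were the mitotic kinesins KIF11, KIF18A, KIF20B and KIFC1, and the higher ones were KIF1A, KIF3C, KIF13B, DYNC1H1 and DYNC1LI1. These calls depend on the treatment of background. Without background correction only KIFC1 stayed 1.5-fold lower and only KIF1A and DYNC1H1 stayed 1.5-fold higher. Of all detected genes 2.34% were then lower and 4.72% higher. With an offset of 50 only KIFC1 was lower and KIF1A, KIF3C and DYNC1H1 were higher, beside 5.18% and 8.28% of all detected genes. Calls thus became fewer among all genes and not only among motor genes. Without background correction 108 genes were at least 2-fold higher and 28 lower, against 410 and 211 with it, and KIF1A was then the 1 motor gene at 2-fold.

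**Figure D1:**
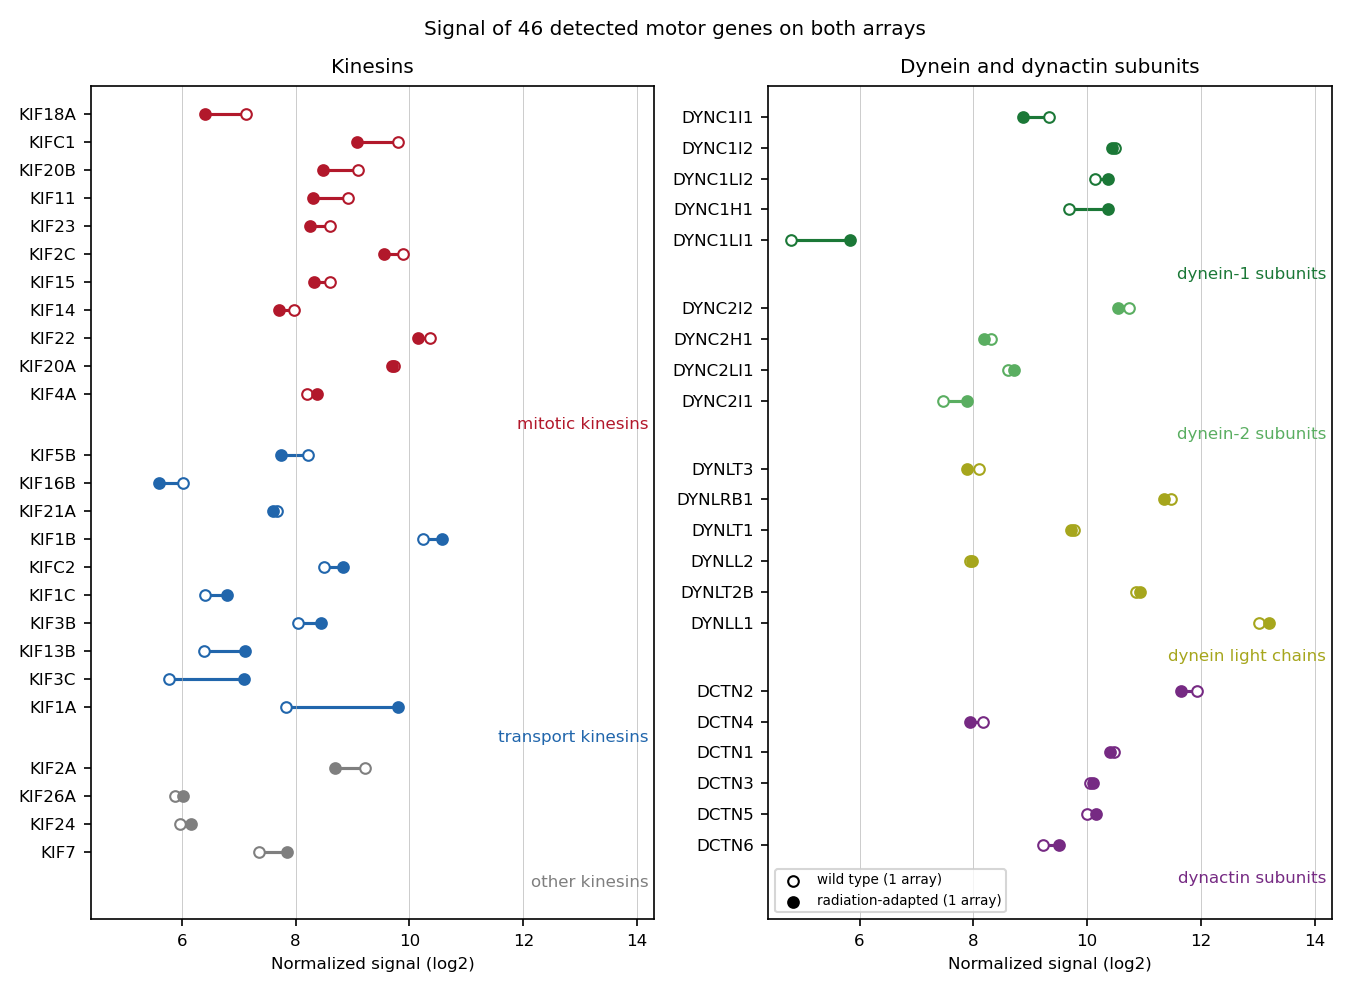
Normalized log2 signal (horizontal axis) of the 46 detected motor genes, 1 row per gene, in wild type cells (open circles) and radiation-adapted cells (filled circles), grouped by role and coloured by it; there is 1 array per group and no error bar. In 10 of the 11 rows of mitotic kinesins the filled circle lies left of the open one, and KIF1A has the longest line.

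**Figure D2:**
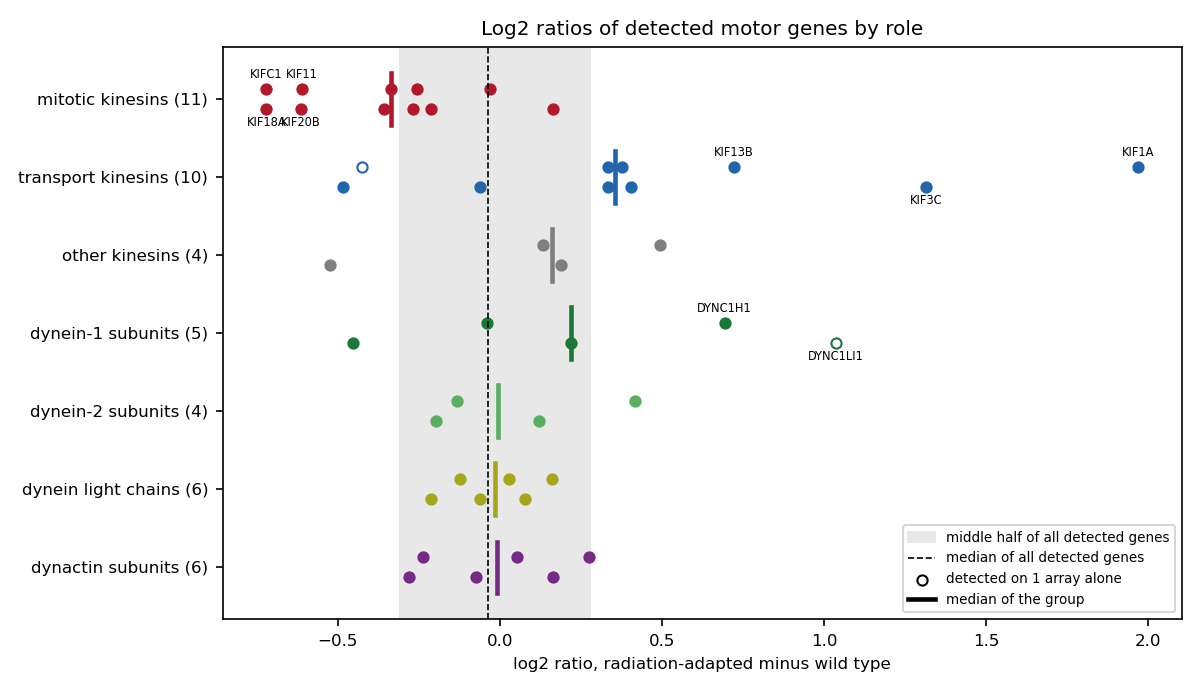
Log2 ratio, radiation-adapted minus wild type (horizontal axis), of each detected motor gene, 1 row per role with its number of genes; thick bars are medians of the role, the dashed line the median of all detected genes and the grey band their quartiles, and open points are genes detected on 1 array alone. The medians of mitotic and transport kinesins lie at -0.34 and 0.36, and those of dynein-2 subunits, light chains and dynactin subunits lie near 0.

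Of the mitotic kinesins, 13 were matched and 11 were detected, all of them on both arrays. KIFC1, also called HSET, is a minus-end-directed kinesin that bundles spindle microtubules and gathers extra centrosomes. Its raw bead signal was 991.8 in wild type and 658.8 in radiation-adapted cells, and its normalized log2 signal went from 9.80 to 9.08, a ratio 1.65-fold lower. KIF18A, which damps the movements of chromosomes at the spindle's equator, had raw signals of 246 and 200.8 and was also 1.65-fold lower. Raw signals hold background. A raw signal of 126.2 in wild type had a detection p-value of 0.50, and one of 127.4 in radiation-adapted cells had 0.49, about the middle of the background. The medians of the arrays, 137 for wild type and 139.3 for radiation-adapted cells, lay somewhat above these signals. The ratio after background correction thus exceeds that of the raw signals, above all for a dim probe such as that of KIF18A.

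KIF11, or Eg5, slides spindle microtubules apart to make the spindle bipolar and is the target of a class of anticancer compounds. Its brighter probe read 586.1 in wild type and 437 in radiation-adapted cells, and its other probe 585.1 and 417. Both probes placed it lower, by 1.53-fold and 1.62-fold. KIF15, which can take over part of the work of KIF11, had raw signals of 491.2 and 441.3 and a log2 ratio of -0.27. Both motors of spindle bipolarity thus had lower signals, KIF11 by the larger ratio.

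Kinesins of cytokinesis, the step that cuts the daughter cells apart, did not lie together. KIF20B was 1.53-fold lower, with raw signals of 649.4 and 476.2. KIF23, the motor of the centralspindlin complex, read 494.4 and 424.4 with its brighter probe, a log2 ratio of -0.36. A dimmer probe of KIF23, annotated to another transcript and detected in radiation-adapted cells alone, read 156 and 177 and had a log2 ratio of 0.43, so the direction for this gene rests on the probe chosen. KIF14, which brings the kinase CIT to the midbody, had raw signals of 356 and 329.1 and a log2 ratio of -0.26. KIF20A, which carries the Aurora B kinase complex to the central spindle, read 953.4 and 951.8, nearly the same raw signal, with a log2 ratio of -0.03.

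Of the kinesins that work on chromosomes and microtubule ends, KIF2C, or MCAK, which takes apart microtubules wrongly attached to kinetochores, read 1051.2 and 870.1, with a log2 ratio of -0.34. KIF22, which pushes chromosome arms towards the equator, read 1413.8 and 1258.6, with a log2 ratio of -0.21. KIF4A, a chromosome-bound motor that also sets the length of the central spindle, was the exception of the group: it read 398.6 and 450.6, a log2 ratio of 0.16. KIF4B, a near-identical retrocopy of KIF4A, was not detected with its own probe, and which copy gives the signal of KIF4A is uncertain. KIF2B was not detected either.

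The 4 mitotic kinesins with the largest ratios, KIF18A, KIFC1, KIF20B and KIF11, are shown with the DNA before their starts, since genes of late cell cycle phases are often controlled through CCAAT boxes and a cell cycle genes homology region (CHR) close to the start. Each line gives the 250 bases before the gene's start, 5′ to 3′ on the gene's strand, from RefSeq, build GRCh38.p14. They are chr11:28108157-28108406 (minus strand), chr6:33391573-33391822 (plus strand), chr10:89701340-89701589 (plus strand) and chr10:92592880-92593129 (plus strand). Capitals mark CCAAT, which reads ATTGG when it lies on the other strand, and the CHR core TTTGAA, which then reads TTCAAA.
KIF18A: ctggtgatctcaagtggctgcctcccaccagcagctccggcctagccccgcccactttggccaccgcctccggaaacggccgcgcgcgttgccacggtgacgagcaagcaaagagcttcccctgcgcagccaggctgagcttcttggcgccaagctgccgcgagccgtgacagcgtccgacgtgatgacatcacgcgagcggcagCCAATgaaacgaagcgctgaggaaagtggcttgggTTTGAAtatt
KIFC1: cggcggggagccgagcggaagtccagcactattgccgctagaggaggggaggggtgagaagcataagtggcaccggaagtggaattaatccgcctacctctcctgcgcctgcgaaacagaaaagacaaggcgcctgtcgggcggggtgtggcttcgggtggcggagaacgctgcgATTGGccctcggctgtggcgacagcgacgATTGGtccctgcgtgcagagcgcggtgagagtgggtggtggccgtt
KIF20B: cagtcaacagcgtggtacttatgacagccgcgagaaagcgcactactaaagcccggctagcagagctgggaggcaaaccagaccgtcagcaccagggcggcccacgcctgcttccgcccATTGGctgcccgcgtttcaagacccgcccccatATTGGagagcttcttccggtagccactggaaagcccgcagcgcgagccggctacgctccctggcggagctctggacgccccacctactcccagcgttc
KIF11: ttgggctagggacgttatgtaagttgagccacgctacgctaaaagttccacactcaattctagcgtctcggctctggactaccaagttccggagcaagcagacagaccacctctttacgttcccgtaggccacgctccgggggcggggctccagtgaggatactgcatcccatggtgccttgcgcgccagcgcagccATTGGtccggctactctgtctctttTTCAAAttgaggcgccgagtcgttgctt

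Each of these windows held at least 1 CCAAT box. In KIF18A a CCAAT box began 45 bases and a CHR core 10 bases before the start, and in KIF11 they began 53 and 28 bases before it. KIFC1 had CCAAT boxes beginning 75 and 46 bases before the start and KIF20B 131 and 98 bases before it, and their CHR cores lay after the start, outside the printed part. No matches in these windows overlapped.

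The same search was run on windows of 300 bases (250 before and 50 after the start) for 41 of the 46 genes. DCTN6, DYNLL2, DYNLT2B, KIF13B and KIFC2 were not searched. A gene with several starts has several windows. For mitotic kinesins 9 of 12 windows (75%) held CCAAT, 10 (83.3%) held TTTGAA or TTCGAA on either strand, and 8 (66.7%) held both. The genes with both were KIF11, KIF14, KIF18A, KIF20B, KIF22, KIF23, KIF4A and KIFC1. Among them were KIF4A, with a log2 ratio of 0.16, and KIF22, with one of -0.21. KIF2C, with a log2 ratio of -0.34, had neither motif. Whether the motifs bear on the ratios was not tested.

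Of all 35116 windows in the RefSeq table, 34.6% held CCAAT, 16.4% a CHR core and 6.38% both, and of 11985 windows of genes detected on these arrays 5.04% held both. Both were found in 1 of 12 windows of transport kinesins (KIF5B), 1 of 26 windows of dynein and dynactin subunits (DYNC2I2) and 1 of 4 windows of other kinesins (KIF24). Of these, KIF5B and DYNC2I2 had log2 ratios below 0 and KIF24 one of 0.19. A binding motif of E2F factors, searched as TTTCGCGC, TTTGGCGC, TTTCCCGC and TTTGCCGC on both strands, was found in 1 of the 12 windows of mitotic kinesins (KIF15, 8.33%) and 2 of the 26 windows of dynein and dynactin subunits (DCTN1 and DCTN2, 7.69%), beside 3.31% of all windows and 5.18% of windows of detected genes. A match describes the letters of a window and does not show that a factor binds there.

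Transport kinesins held the largest difference of all 46 motor genes. KIF1A, which carries the precursors of synaptic vesicles along axons, had a raw signal of 332.6 in wild type and 1016.6 in radiation-adapted cells. Its normalized log2 signal went from 7.84 to 9.81, a ratio 3.92-fold higher, which placed it at percentile 99.6 of the ratios of all detected genes. KIF3C, a partner of the heterodimeric kinesin-2 motors and known mainly from neurons, read 164.5 and 254.1 and was 2.49-fold higher. The wild type signal of KIF3C is close to the limit of detection, and without background correction its log2 ratio was 0.57 in place of 1.31. KIF1A and KIF3C were each measured by 1 probe.

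As these motors are known from neurons, markers of that cell type are given beside them. Of 5 neuronal markers, SYT1, SNAP25 and STMN2 were detected, with log2 ratios of -0.04, 0.44 and 1.27, and RBFOX3 and NEFL were not detected. The summed normalized signal of the 3 detected markers was 898 in wild type and 1463 in radiation-adapted cells. Most of the rise in this sum came from STMN2, whose log2 signal was 8.52 in wild type and 9.79 in radiation-adapted cells. TUBB3, a tubulin of neurons, is not among these 5 markers but comes from a list of tubulins, and had a log2 ratio of -0.43. The 12 tubulins of that list lay on both sides of 0, 6 above and 6 below, with TUBB4A the highest at 0.67. The part of neuronal expression in the ratios of KIF1A and KIF3C was not tested.

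The other transport kinesins differed by less than 2-fold. KIF13B, which carries phosphoinositide and growth factor receptor cargo, was 1.65-fold higher (raw signals of 192 and 256.1). KIF3B, a heavy chain of the main kinesin-2 motor, was higher with both of its probes, at log2 ratios of 0.40 and 0.38, while KIF3A, its usual partner, was not detected. KIF1C, a motor of vesicles and of some messenger RNAs, had a log2 ratio of 0.38, and the C-terminal motor kinesin KIFC2 one of 0.33. For KIF1C and KIF13B the probes were dim.

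KIF1B, which carries mitochondria or synaptic vesicle precursors depending on the isoform, gave opposite answers with its 3 detected probes. The brightest read 1305.1 and 1650.1, a log2 ratio of 0.33. A probe annotated to another transcript read 365.9 and 329.4, a log2 ratio of -0.31, and a dim probe, annotated to the same transcript as the brightest and detected in wild type cells alone, one of -0.68. No single direction can be given for this gene.

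Lower in the group were KIF5B, KIF16B and KIF21A. KIF5B, the conventional kinesin heavy chain found in nearly all cells, read 402.9 and 333, a ratio 1.40-fold lower. KIF16B, a motor of early endosomes, was detected in wild type cells alone and was at least 1.29-fold lower as processed here. Its log2 ratio depended on the setting, at -0.14 without background correction, -0.26 with an offset of 50 and -0.59 with the authors' processed values. Its other probe, not detected, had a log2 ratio of 0.16. KIF21A, known from axons, where it restrains microtubule growth, read 308.9 and 314.4, a slightly higher raw signal. Its log2 ratio after normalization was -0.06, at percentile 47.3 of all detected genes. KIF5A, KIF5C, KIF13A, KIF17, KIF21B and KIFC3 were not detected, in addition to KIF3A, so 7 of the 17 matched transport kinesins have no measured ratio.

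Set pair by pair, the mitotic kinesin had the lower ratio in 94 of 110 pairs of 1 mitotic and 1 transport kinesin (85.5%). The 4 lowest mitotic kinesins lay below every detected transport kinesin, and 7 transport kinesins, KIF1B with its brightest probe among them, lay above every mitotic one. With the median of a gene's detected probes the mitotic kinesin was lower in 87 pairs (79.1%), and 6 transport kinesins, without KIF1B, lay above every mitotic one. KIF5B, KIF16B and KIF21A lay within the range of the mitotic kinesins. The pairs share genes and arrays, so they are a description of these 2 arrays.

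**Figure D3:**
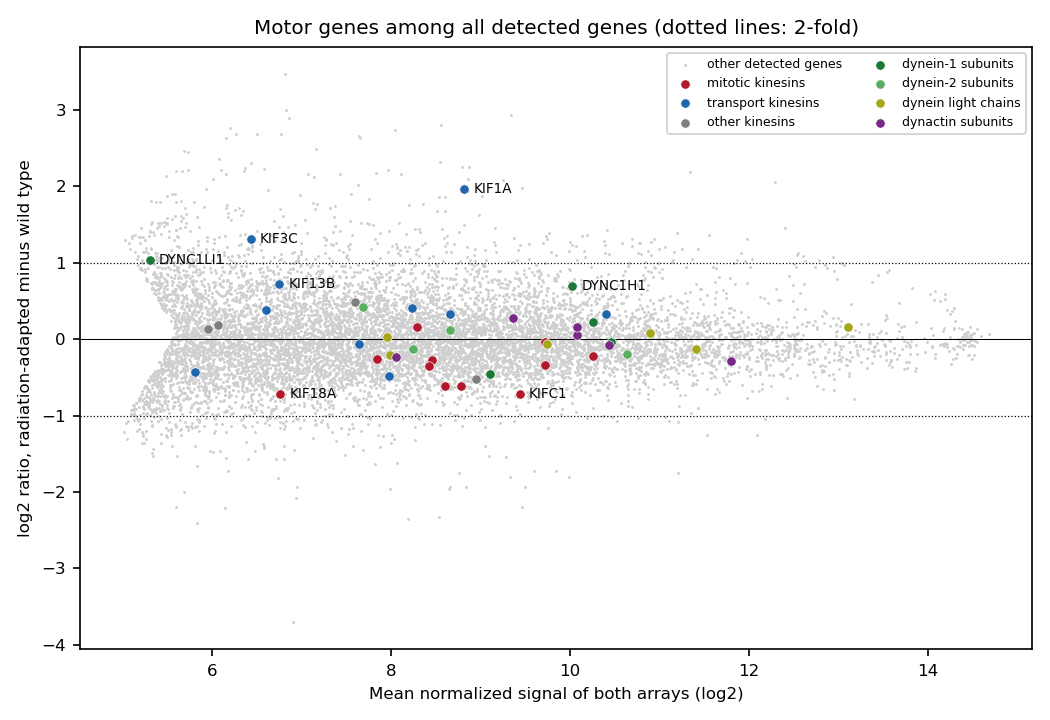
Log2 ratio, radiation-adapted minus wild type (vertical axis), against the mean normalized log2 signal of both arrays (horizontal axis) for all 10189 detected genes (grey points), with the 46 motor genes coloured by role; dotted lines mark 2-fold. KIF1A lies at a middling signal and well above the 2-fold line, while KIF3C and DYNC1LI1 lie at the dim end, where the grey cloud is widest.

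Of 11 matched kinesins of other or several roles, 4 were detected. KIF2A, which takes apart microtubule ends both at spindle poles and in neurites, read 696.8 and 531.4, a ratio 1.44-fold lower. KIF7, which works at the tip of the primary cilium in Hedgehog signalling, read 269.7 and 350.2, a ratio 1.41-fold higher. KIF24, which holds back cilium formation at the centriole, and KIF26A, a kinesin without motor activity, had log2 ratios of 0.19 and 0.13 on dim probes. KIF6, KIF9, KIF12, KIF19, KIF25, KIF26B and KIF27 were not detected.

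Cytoplasmic dynein-1 is the main minus-end motor, and its 5 matched subunits were all detected. Its heavy chain, DYNC1H1, which holds the motor itself, read 923.6 in wild type and 1451.1 in radiation-adapted cells. This is a ratio 1.62-fold higher, the largest among dynein subunits detected on both arrays. DYNC1LI1, a light intermediate chain that binds cargo adaptors, was not detected in wild type cells and was at least 1.21-fold higher. The other light intermediate chain, DYNC1LI2, read 1230.7 and 1444.4, with a log2 ratio of 0.22. Of the intermediate chains, which bind dynactin, DYNC1I1 read 744.7 and 588.9 and was 1.37-fold lower, while DYNC1I2 had a log2 ratio of -0.04. On these 2 arrays the heavy chain DYNC1H1 and the intermediate chain DYNC1I1 lay on opposite sides of 0. Each was measured by 1 probe, so whether the subunits of dynein-1 differ in direction between the cells is not shown.

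Dynein-2 carries cargo back from the tip of the cilium. Of its 4 subunits with DYNC2 symbols, DYNC2I1, an intermediate chain, read 283.6 and 357.3 and was 1.34-fold higher. The other intermediate chain, DYNC2I2, read 1792.8 and 1616.6, with a log2 ratio of -0.20. The heavy chain DYNC2H1 and the light intermediate chain DYNC2LI1 had log2 ratios of -0.13 and 0.12. Within each of these pairs the subunits thus lay on opposite sides of 0, at small ratios. Light chains, DYNLT2B among them, are given separately.

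Dynein light chains are small dimers that stabilise the intermediate chains, and some bind many other proteins. Of 10 matched, 6 were detected, and all their log2 ratios lay between -0.21 and 0.16. DYNLL1 read 8182.2 and 9656.8 with its brighter probe and 4624.2 and 6270.9 with the other, with log2 ratios of 0.16 and 0.40. DYNLT3 read 376.9 and 355.1 and had the lowest ratio. DYNLRB1, measured by 4 detected probes, had ratios from -0.12 to 0.09, on both sides of 0. DYNLL2, DYNLT1 and DYNLT2B had log2 ratios of 0.03, -0.06 and 0.08. DYNLRB2, DYNLT2, DYNLT4 and DYNLT5 were not detected.

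All 6 matched dynactin subunits were detected on both arrays, with log2 ratios between -0.28 and 0.27. DCTN2, or dynamitin, which forms the shoulder that joins dynactin's filament to its projecting arm, read 3950.3 and 3386.3, a ratio 1.21-fold lower. DCTN6, at the pointed end of the filament, read 700.9 and 841.1, 1.21-fold higher, and its second probe also lay above 0. DCTN1, or p150Glued, which holds the microtubule and the dynein intermediate chain, had a log2 ratio of -0.07 with its brighter probe and 0.65 with another, annotated to a different transcript. The shoulder subunit DCTN3 and the pointed-end subunits DCTN4 and DCTN5 had log2 ratios of 0.05, -0.24 and 0.16. DCTN1-AS1, an antisense RNA matched by its symbol, was not detected.

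Only 9 of the 46 genes had more than 1 detected probe, which is the one repeat of a ratio that these arrays hold. In 5 of the 9 (DCTN6, DYNLL1, DYNLT2B, KIF11 and KIF3B) all detected probes lay on one side of 0, and in DCTN1, DYNLRB1, KIF1B and KIF23 they did not. By the brightest pair of probes, 55.6% of the 9 motor genes had the same sign, beside 71.2% of 2567 genes with several detected probes. Over those 2567 genes, the log2 ratios of the brightest pair differed with an SD of 0.466. Of the 46 ratios, 12 (26.1%) lay farther from 0 than this SD, beside 31.3% of all detected genes, so the motor genes did not stand out in size. Such probes share the arrays, so this spread does not hold the difference between cultures.

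**Figure D4:**
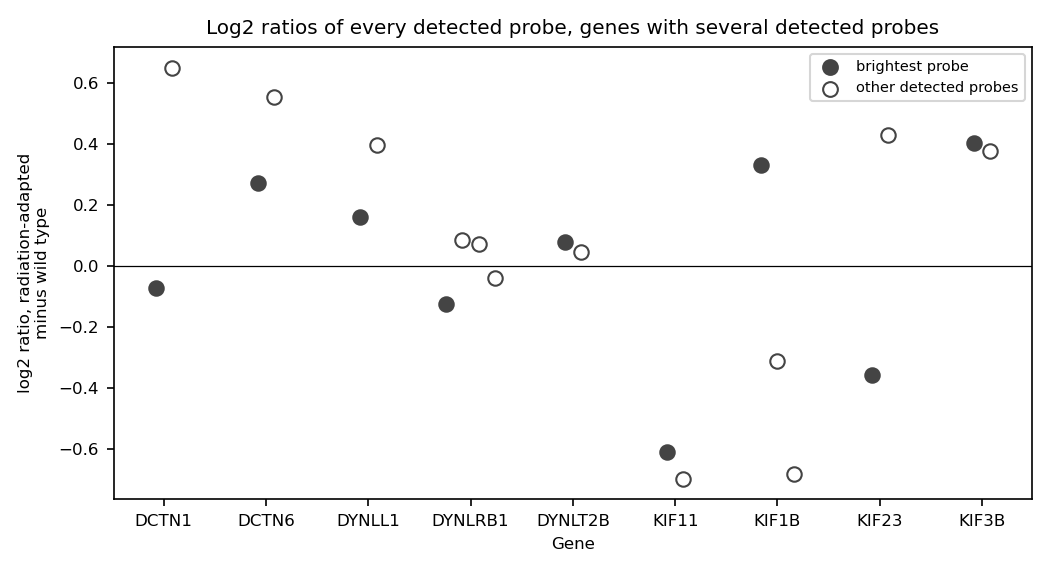
Log2 ratio, radiation-adapted minus wild type (vertical axis), of each detected probe of the 9 motor genes with several detected probes (horizontal axis); the filled point is the brightest probe, used for the gene, and open points are the others. Both probes of KIF11 lie near -0.6 to -0.7, whereas the probes of KIF1B, KIF23 and DCTN1 lie on both sides of 0.

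Closest to the detection limit among the 46 genes were KIF16B, with a lower detection p-value of 0.0013 and raw signals of 173.9 and 162.6, and DYNC1LI1, with 0.0039 and raw signals of 134.9 and 171.3. Just outside lay KIF27, at 0.0195, and KIF5C, at 0.0221. A gene that enters through 1 array alone had to differ between the arrays, which holds for KIF16B and DYNC1LI1.

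Genes that work with the motors were taken from lists of known partners. Of 15 spindle partners of mitotic kinesins, all detected, 11 were below 0 and 4 above, with a median log2 ratio of -0.13. HMMR, a spindle assembly factor, was the lowest at -0.97, followed by BIRC5 (survivin) at -0.63 and CDCA8 (borealin) at -0.47, both of the Aurora B complex, and KNSTRN, an adaptor of the spindle and kinetochore, at -0.42. None passed 2-fold. CENPE, a kinesin that moves chromosomes to the spindle's equator and whose symbol lies outside the rule for motor genes, read 703.9 and 569.3, with a log2 ratio of -0.42. It was named after its value was seen.

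Of 10 proliferation markers 8 were below 0, with a median of -0.20. PLK1, a mitotic kinase, was 2.06-fold lower (raw signals of 283.7 and 202.7), CCNA2 (cyclin A2) had a log2 ratio of -0.54 and CDC20, an activator of the ubiquitin ligase that ends mitosis, one of -0.39. MKI67, which encodes the marker Ki-67, went the other way, with raw signals of 189.3 and 249.2 and a log2 ratio of 0.70 on a dim probe. Lower signals of mitotic genes in bulk RNA can come from fewer cells in mitosis or from less RNA per such cell, and these cannot be told apart here. The part of the share of dividing cells in the lower mitotic kinesins was not tested.

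Of 14 kinesin light chains and cargo adaptors 12 were detected, 7 above 0 and 5 below, with a median of 0.23. KIFAP3, which joins the kinesin-2 motor of KIF3A and KIF3B to its cargo, read 539 and 802.6, with a log2 ratio of 0.65. The mitochondrial adaptors TRAK1 and TRAK2 lay on opposite sides: TRAK1 read 334.9 and 457.5 and TRAK2 read 619.5 and 405.1, with log2 ratios of 0.55 and -0.86. MAPK8IP3, an adaptor of axonal transport, had a log2 ratio of 0.51. No gene of this list passed 2-fold.

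Of 12 dynein adaptors and regulators 11 were detected, 6 above 0 and 5 below, with a median of 0.10. BICD2, which couples dynein to Golgi vesicles and nuclei, had a log2 ratio of 0.65 and the centrosomal adaptor NINL one of 0.60. HOOK2, which works at the centrosome, had one of -0.60. HOOK3 was detected in wild type cells alone, close to the limit, at raw signals of 159.5 and 142.7, and no fold is given.

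Of the proteins of dynactin's actin-like filament, ACTR10 and the capping proteins CAPZA1, CAPZA2 and CAPZB were measured, with log2 ratios from -0.27 (CAPZA1) to 0.02 (ACTR10), while ACTR1A and ACTR1B were not analysed here. Of 12 tubulins, the subunits of the track itself, 6 were above 0 and 6 below, with a median of -0.04 equal to that of all genes. TUBB4A had the highest ratio, at 0.67, and TUBB6 was at 0.39. TUBB3, a tubulin of neurons, had the lowest ratio, at -0.43, and TUBG1, which seeds microtubules, was at -0.25. Tubulin genes are alike in sequence, so the share of each is uncertain.

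**Figure D5:**
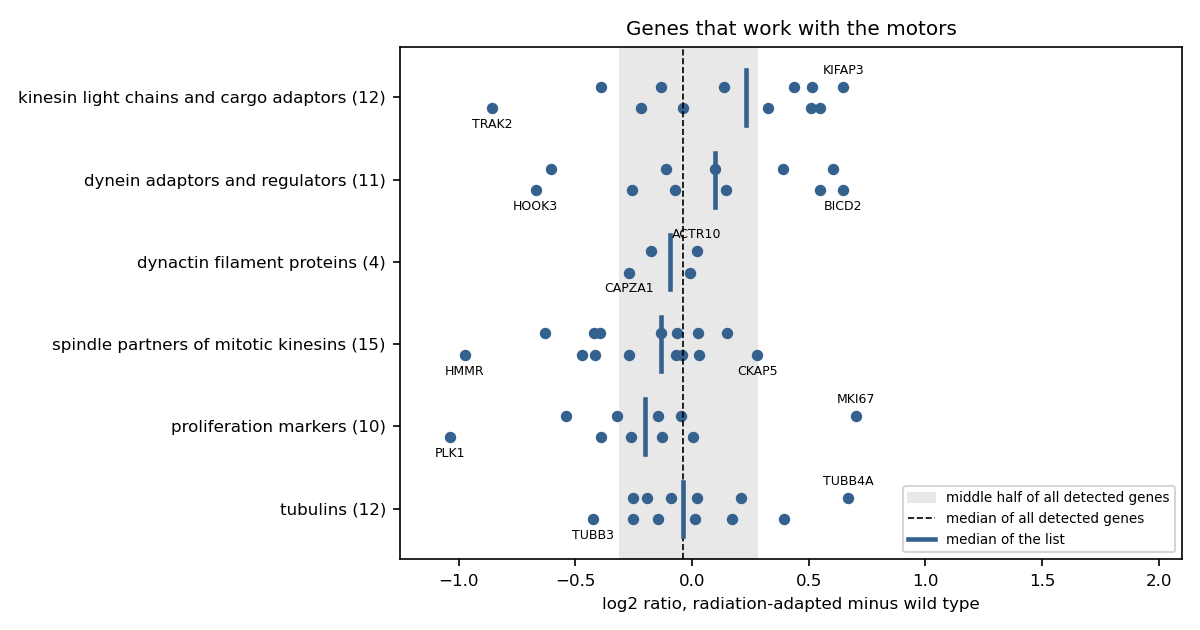
Log2 ratio, radiation-adapted minus wild type (horizontal axis), of detected genes that work with the motors or mark dividing cells, 1 row per list with its number of genes; thick bars are medians of the list, the dashed line the median of all detected genes and the grey band their quartiles. Spindle partners (-0.13) and proliferation markers (-0.20) have medians below 0, and kinesin light chains and cargo adaptors (0.23) one above 0.

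Both arrays held 47323 probes, of which 33.6% were detected in wild type and 32.5% in radiation-adapted cells. All 9 Ewing sarcoma markers measured, among them CD99, NKX2-2 and CCND1, were detected on both arrays. Of markers of other cell types, 5 of 8 for fibroblasts, 1 of 6 for epithelium, 2 of 5 for leukocytes and 0 of 4 for endothelium were detected. For fibroblasts COL3A1, DCN, PDGFRB, THY1 and FAP were detected, and COL1A1, LUM and POSTN were not. The epithelial marker detected was EPCAM, and the leukocyte markers detected were LCP1 and CORO1A. The summed normalized signal of the detected fibroblast markers was 1831 and 2088, that of the leukocyte markers 144.1 and 85.9, and that of EPCAM 82.3 and 72.6.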

How the data were processed

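Illumina BeadChips measured total RNA of 1 array of wild type and 1 of radiation-adapted SK-ES1 cells. The authors deposited average bead signal intensity values, labelled non-normalized, together with detection p-values. They also deposited a processed table of intensity values; its making is not stated, and its values look background-subtracted and quantile-normalized. No genome build, scanner or software is given in the sources used here.

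Background correction, quantile normalization and log2 were done by neqc (offset 16) of limma 3.58.1 in R 4.3.3, and later steps with Python 3.11.15 and pandas 2.3.3. The offset makes folds of dim genes smaller. Of 47323 probes, 30113 had 1 gene symbol in GEO's platform annotation, 8 had several and 17202 were not named here. All 67 motor genes matched a RefSeq entry (GRCh38.p14). Each gene was represented by its brightest probe. A gene detected on 1 array has a fold written as "at least", taken against the dim array's lowest detected signal or, if higher, the gene's own signal there. Such a bound applies to the processing used here and holds no allowance for measurement error. The number of arrays limits the precision.

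Named genes were all matched motor genes, with signals for those at 1.5-fold or more and those largest in each role, and the up to 4 genes with the largest ratios from each partner list, CENPE being an exception. Members, lists and alternatives were chosen with earlier results of these data known. Roles of DYNC2I1, DYNC2I2 and the DYNLT2, DYNLT2B, DYNLT4 and DYNLT5 genes were added after the files were read. KIF18B was not analysed here. The steps were tested on simulated data. Alternatives were no background correction, an offset of 50, median scaling, the authors' processed intensity values, a detection p-value under 0.05, genes detected on both arrays, bounds, the median of a gene's probes, a limit of 1.5-fold, members on chromosomes 1 and 17 left out, KIF2A counted as mitotic, and genes with later-added roles left out.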

Additional observations from a re-analysis of the deposited data

How the results depend on the processing

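No paired analysis was possible because each group had 1 array. The median of mitotic kinesins stayed below 0 under all alternatives run, from -0.36 to -0.27, and that of transport kinesins above 0, from 0.28 to 0.38. Their difference ran from -0.73 to -0.55, and that between mitotic kinesins and dynein with dynactin from -0.38 to -0.29. The dynein median of 0.03 turned to -0.0063 over genes detected on both arrays, and also without the genes whose roles were added after the data were seen. The dynactin median of -0.01 became 0.11 with the median of a gene's probes, through the second probe of DCTN1. In place of 3 motor genes, 1 was at least 2-fold higher without background correction and 1 with an offset of 50. Over all detected genes the number fell likewise, from 410 to 108 and to 212. At a limit of 1.5-fold there were 5 motor genes higher (10.9%) and 4 lower (8.70%), beside 12.5% and 9.59% of all detected genes. Of single genes, DYNC1LI1 moved from 1.04 to 0.31 without background correction and to 0.56 with an offset of 50, and KIF1B turned from 0.33 to -0.31 with the median of its probes. In all, 4 motor genes changed sign under at least 1 alternative: DCTN1, DYNLRB1, KIF1B and KIF23, each with the median of its probes. Dim probes limit KIF3C, KIF16B, KIF24, KIF26A and DYNC1LI1, whose signals were close to background.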
